A study of Mus musculus with 14 samples.

Results

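The 55 genes described here encode the machinery of mitosis and cytokinesis: the cyclins, kinases and phosphatases of mitotic entry, the chromosomal passenger complex, the spindle checkpoint, the anaphase-promoting complex and its targets, kinetochore proteins, spindle kinesins, the cytokinesis machinery and condensin. They were taken by symbol from a list of known members. All 55 symbols had 1 row each in the deposited table of 22295 rows, and all 55 were among the 9627 genes that passed the filter on low values. RNA came from mouse splenic B cells purified by negative selection and cultured for 4 days (96 h) in 5 µg/ml LPS plus 10 ng/ml IL-4, a treatment that all groups received. The groups were wild type (WT, n = 4), mice homozygous for the PU.1[155-/155-] allele (PU.1 KI, n = 5), in which the miR-155 site in the 3′ UTR of the PU.1 gene is mutated, and miR-155[-/-] mice (miR-155 KO, n = 5). Each allele is carried by the whole mouse, and the sources used here do not state strain, age or sex. The design text calls the libraries biological replicates.

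A cell enters mitosis when cyclin B and the kinase Cdk1 become active: Wee1 holds Cdk1 back by phosphorylation, and Cdc25 phosphatases remove that block. The spindle checkpoint then restrains the anaphase-promoting complex until every kinetochore is attached, after which separase cuts cohesin and the contractile ring divides the cell. LPS and IL-4 make resting B cells divide repeatedly before some of them become plasmablasts. Most of these genes are transcribed late in the cell cycle, through promoters with a cell cycle homology region (CHR), read by the MuvB complexes and FOXM1, and CCAAT boxes, read by NF-Y.

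The promoters of these genes share those elements more often than promoters at large. In the RefSeq promoter windows (build GRCm38.p6, 250 bases before to 50 after an annotated start), 45 of the 55 genes were matched, with 48 windows. The CHR core, searched as TTTGAA or TTCGAA on both strands, was in the windows of 35 of the 45 genes (77.8%), against 21.7% of all 27025 genes. CCAAT, on both strands, was in 34 (75.6%) against 41.1%, and both motifs were in 30 (66.7%) against 8.61%. At least 2 CCAAT boxes occurred in 48.9% of the matched genes and in 13.3% of all genes. Of 53 CHR matches, 73.6% lay between 100 bases before and 50 after the start, compared with 42.2% over all 32851 windows, and their median position was -12.5 bp against -122.5 bp. The 78 CCAAT matches sat further upstream, at a median of -69 bp, against -90 bp over all windows. The 6 windows printed here hold both motifs. They were picked by outcome: among matched genes with both motifs, these had the largest called changes between genotypes, given below. They lie in Cdc25b at chr2:131186698-131186997 on the plus strand, Cdk1 at chr10:69352863-69353162 on the minus strand, Cenpa at chr5:30666636-30666935 on the plus strand, Espl1 at chr15:102296043-102296342 on the plus strand, Plk1 at chr7:122159185-122159484 on the plus strand and Cdca8 at chr4:124936868-124937167 on the minus strand. Each reads 5′ to 3′ in the direction of the gene, with the CHR core, CCAAT or their reverse complements (TTCAAA and ATTGG) in capitals. In Cdca8 a CHR core and a reverse CCAAT share a base. A match describes the letters and is not evidence of a bound factor. Ccna2, Tpx2, Spc24, Smc4, Wee1, Aurkb, Cdc25c, Foxm1, Kif20a and Incenp were not matched.
Cdc25b: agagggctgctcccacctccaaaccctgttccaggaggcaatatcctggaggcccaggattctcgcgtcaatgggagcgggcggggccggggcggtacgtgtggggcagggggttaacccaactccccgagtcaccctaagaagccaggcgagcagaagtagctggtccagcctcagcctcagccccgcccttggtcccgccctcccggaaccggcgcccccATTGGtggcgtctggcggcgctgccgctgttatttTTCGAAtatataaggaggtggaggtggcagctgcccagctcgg
Cdk1: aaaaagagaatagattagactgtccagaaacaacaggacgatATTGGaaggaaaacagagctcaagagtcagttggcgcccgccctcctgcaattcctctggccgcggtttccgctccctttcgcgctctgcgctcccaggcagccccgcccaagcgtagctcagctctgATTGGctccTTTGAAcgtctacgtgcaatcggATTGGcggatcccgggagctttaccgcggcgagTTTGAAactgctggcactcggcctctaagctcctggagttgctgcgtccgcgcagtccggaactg
Cenpa: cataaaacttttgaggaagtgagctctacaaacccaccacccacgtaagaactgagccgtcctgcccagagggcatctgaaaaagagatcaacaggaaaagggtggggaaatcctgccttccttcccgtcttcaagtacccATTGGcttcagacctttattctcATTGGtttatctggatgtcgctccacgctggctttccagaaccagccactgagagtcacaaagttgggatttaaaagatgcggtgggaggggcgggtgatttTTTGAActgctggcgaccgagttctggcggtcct
Espl1: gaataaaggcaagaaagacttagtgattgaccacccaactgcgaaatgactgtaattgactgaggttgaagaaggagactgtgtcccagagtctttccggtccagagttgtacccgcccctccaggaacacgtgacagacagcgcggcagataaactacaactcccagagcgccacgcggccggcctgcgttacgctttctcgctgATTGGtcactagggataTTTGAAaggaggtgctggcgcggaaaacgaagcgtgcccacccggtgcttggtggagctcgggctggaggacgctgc
Plk1: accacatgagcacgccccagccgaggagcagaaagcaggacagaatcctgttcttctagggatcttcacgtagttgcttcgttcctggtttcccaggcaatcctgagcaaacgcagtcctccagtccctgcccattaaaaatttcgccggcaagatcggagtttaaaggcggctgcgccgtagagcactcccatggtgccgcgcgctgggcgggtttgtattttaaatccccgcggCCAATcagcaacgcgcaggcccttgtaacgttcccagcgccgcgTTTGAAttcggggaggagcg
Cdca8: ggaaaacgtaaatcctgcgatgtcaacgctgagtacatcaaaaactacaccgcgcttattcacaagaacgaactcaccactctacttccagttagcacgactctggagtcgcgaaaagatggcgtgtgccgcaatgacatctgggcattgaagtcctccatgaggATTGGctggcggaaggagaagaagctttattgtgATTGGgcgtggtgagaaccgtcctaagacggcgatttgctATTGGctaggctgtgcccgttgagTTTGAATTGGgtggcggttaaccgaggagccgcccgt

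**Figure D1:**
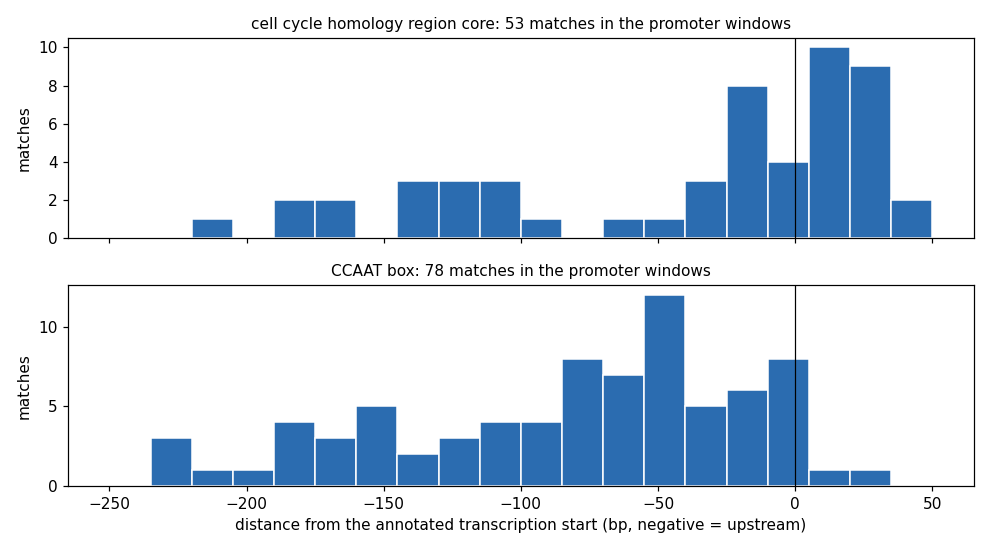
Positions of CHR cores (53 matches) and CCAAT boxes (78 matches) in the promoter windows of the 45 matched genes, as distance from the annotated start in bp, in bins along the window; the vertical line marks the start. CHR cores gather around and just after the start, and CCAAT boxes mostly upstream of it.

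Values are the deposited RPKM, read numbers scaled by gene length in kb and by 1000000 reads of the library. Depth recovered from the RPKM steps was 31.5 to 52.4 M reads (units of 1000000), so 1 RPKM on a 2 kb gene stood for 63.0 to 104.9 reads. The 6 B cell markers summed to 1488 to 1720 RPKM in WT, 1528 to 1779 in PU.1 KI and 1348 to 1462 in miR-155 KO, the last below both others. By contrast, none of the 5 T cell, 5 NK cell, 5 macrophage, 5 neutrophil or 5 erythroid markers passed the filter, and no such list summed to more than 1.04 RPKM in any library. In miR-155 KO the T cell sums (0.629 to 0.866 RPKM) and macrophage sums (0.792 to 1.04) lay above those of WT (0.0867 to 0.144 and 0.373 to 0.578) and PU.1 KI (0.0170 to 0.183 and 0.271 to 0.505). The erythroid genes Hbb-b1 and Slc4a1 and the neutrophil genes Ly6g, Elane, S100a8 and S100a9 were listed at 0 throughout. The 5 plasma cell markers (Sdc1, Igj, Prdm1, Xbp1, Irf4) summed to 417 to 501 RPKM in WT, 224 to 344 in PU.1 KI and 267 to 406 in miR-155 KO. The WT range of this sum lay above both others, but the 5 markers did not move together. In PU.1 KI against WT, 2 of them fell and 1 rose. In miR-155 KO against WT, 3 fell and 1 rose. The 6 B cell markers also varied: in miR-155 KO against WT 3 fell and 0 rose, with changes from -0.76 to 0.11. In PU.1 KI against WT, 2 of those 6 rose and 1 fell. The part of these marker differences in the differences between genotypes was not tested. Changes are log2 fold changes ± SE on the log2(RPKM + 0.5) scale from limma, with p-values adjusted over all 9627 genes and a threshold of 0.05; rose and fell are used only past it. The 3 comparisons share libraries in pairs, so each is given with its own values. Where 2 changes of miR-155 KO are given without a name, the first is against WT and the second against PU.1 KI.

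Mitotic genes were lower in miR-155 KO cells. Against WT, 28 of the 55 fell and 2 rose, Wee1 and Anln. The 28 were 50.9% of the members, where 35.3% of all tested genes fell, 27.2% rose and 62.5% changed in either direction. The median change over the 55 was -0.18, against -0.05 over all tested genes, and 50 of the 55 changes were below 0. The falls reached -0.69 for Cdc25b, and 24 of the 28 calls were kept whichever single library was left out. In bulk RNA, a smaller share of cells in mitosis and less of each RNA per mitotic cell cannot be told apart.

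Against PU.1 KI, 42 of the 55 genes fell in miR-155 KO and the same pair, Wee1 and Anln, rose. The 42 were 76.4% of the members, with a background of 46.4% lower, 17.9% higher and 64.3% either way among all tested genes. Here the median over the 55 was -0.25, but the median of all tested genes was itself -0.13. Median-of-ratios scaling, which sets each library by its typical gene, moved that all-gene median to 0.01. Under that scaling the members' median was -0.11 and 28 of the 42 remained lower (50.9% of members, against 29.9% of all genes lower and 32.7% higher). The 14 that lost the call were Ccnf, Foxm1, Incenp, Bub1, Bub1b, Ttk, Fzr1, Spc25, Kif2c, Kif4, Prc1, Ect2, Smc2 and Ncapg. The comparison with WT moved less with scaling: 24 of the 28 remained lower (43.6%, against 32.7% of all genes lower and 35.3% higher), with a median of -0.12 against 0.01, and Cenpf, Kif4, Ncapg and Mki67 lost the call. Quantile normalization kept 24 of the 28 lower against WT and 25 of the 42 against PU.1 KI. Wee1 and Anln stayed higher in both comparisons under either scaling.

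Fewer members differed between PU.1 KI and WT. Cdc25c, Aurka, Aurkb, Racgap1 and Anln rose, by 0.22, 0.17, 0.21, 0.24 and 0.19. These 5 are 9.09% of the members, fewer than among all tested genes, of which 23.7% rose, 4.03% fell and 27.7% changed either way. By limma 0 members fell, with 2 lower at an unadjusted p under 0.05 (Cdc25b and Smc2) and 13 higher. The members' median change was 0.08, equal to the 0.08 of all tested genes. After median-of-ratios scaling only Aurkb and Racgap1 of the 5 remained higher and 8 members were lower (Ccnb1, Cdc25b, Wee1, Mad2l1, Nuf2, Spc25, Top2a and Smc2), with a background of 17.7% higher and 15.4% lower and a members' median of -0.01. The count of higher members rested on single libraries: it was 2 without WT 1, 0 without WT 2, 3 without WT 3 and 8 without WT 4. Leaving out PU.1 KI 3, 4 or 5 gave 2 each, and leaving out miR-155 KO 5, which enters only through the shared spread, gave 9. Cdc25c lost its call without PU.1 KI 3, PU.1 KI 4, PU.1 KI 5, WT 1 or WT 2 (adjusted p from 0.0569 to 0.149), and Aurka without PU.1 KI 3, PU.1 KI 4, PU.1 KI 5, WT 1, WT 2 or WT 3 (adjusted p from 0.058 to 0.1002). Aurkb did so without PU.1 KI 3, PU.1 KI 4, WT 1, WT 2 or WT 3 (adjusted p from 0.0582 to 0.146), Anln without PU.1 KI 5, WT 2 or WT 4 (adjusted p from 0.0522 to 0.0765) and Racgap1 without WT 2 (adjusted p = 0.0611).

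**Figure D2:**
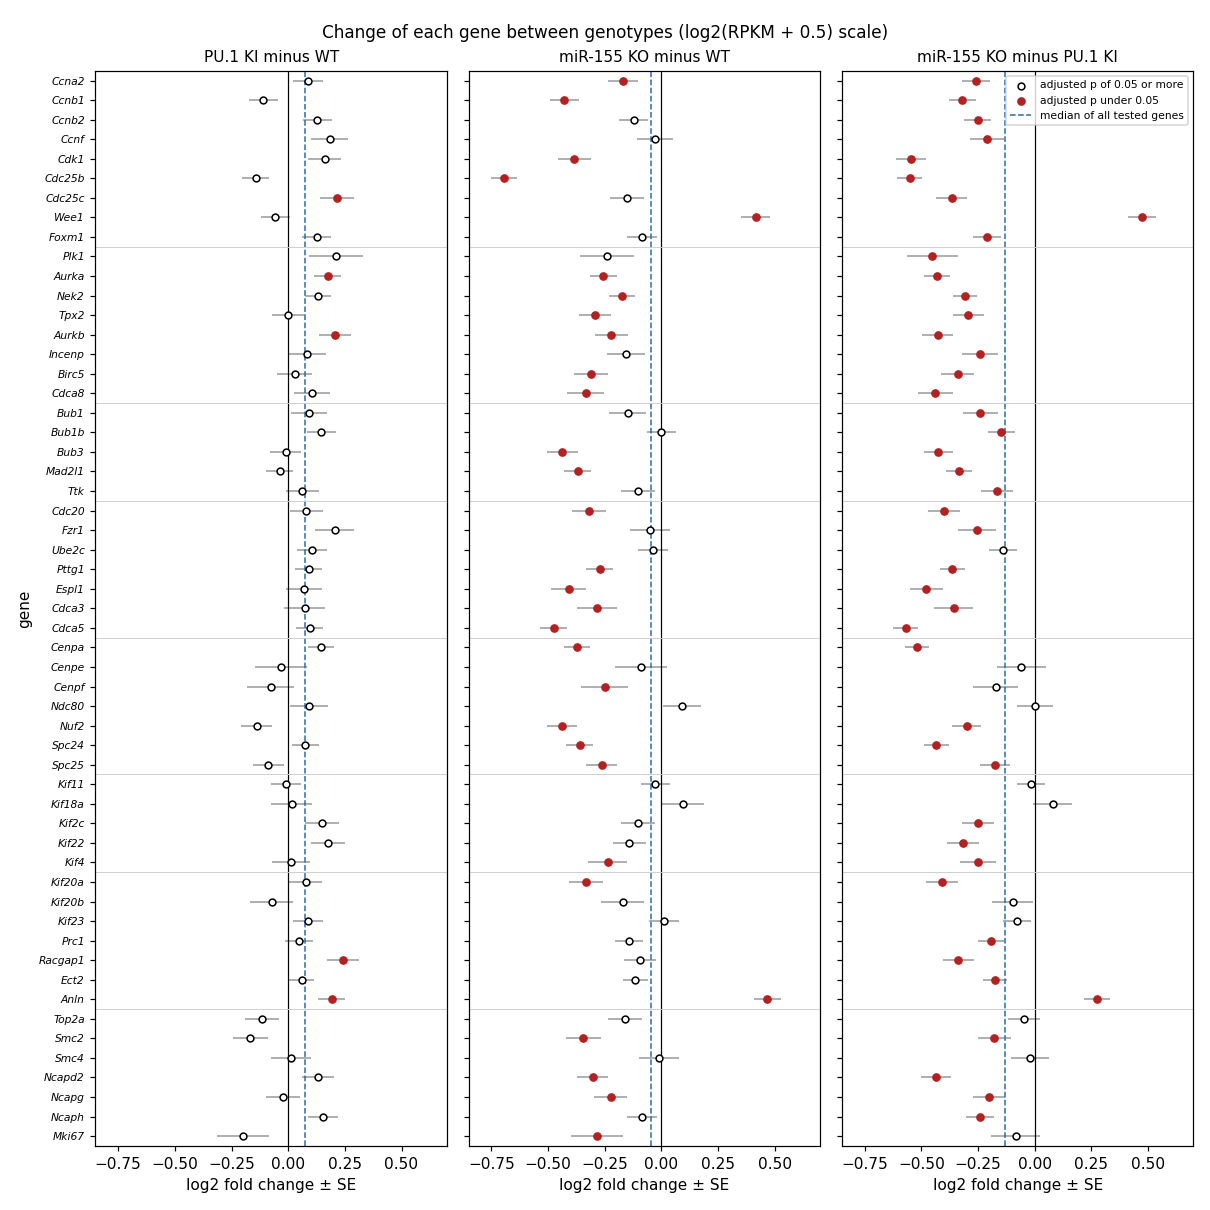
Log2 fold change ± SE of each of the 55 genes, on the log2(RPKM + 0.5) scale, in the 3 comparisons; red points passed an adjusted p of 0.05 and the dashed line is the median of all tested genes. In both comparisons of miR-155 KO most points lie left of the dashed line, with Wee1 and Anln far to the right, while the PU.1 KI points scatter around it.

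Among the 9 regulators of mitotic entry, 4 fell and 1 rose in miR-155 KO against WT, and 8 fell and 1 rose against PU.1 KI, where 35.3% and 46.4% of all tested genes fell. The 8 became 6 with median-of-ratios scaling and 4 with quantile normalization, while the 4 against WT stayed 4. Cdc25b (ENSMUSG00000027330, chr2:131012685-131024233, plus strand), a phosphatase that activates Cdk1, had the largest fall of all 55 genes against WT. It read 33.4, 34.4, 36.5 and 37.8 RPKM in WT, 30.4, 29.3, 33.6, 35.4 and 31.9 in PU.1 KI and 21.2, 21.6, 22.01, 21.7 and 22.1 in miR-155 KO. Every miR-155 KO library lay below every other library, and WT and PU.1 KI overlapped. The change was -0.69 ± 0.06 (adjusted p = 6.3e-09) against WT and -0.55 ± 0.06 (adjusted p = 8.75e-08) against PU.1 KI. Against WT, the PU.1 KI change was -0.14 ± 0.06 (adjusted p = 0.0756), and it passed the threshold after both scalings and without PU.1 KI 4 (adjusted p = 0.0274). Wee1 (ENSMUSG00000031016, chr7:117265864-117285626, plus strand), the kinase that opposes Cdc25 on Cdk1, moved the other way. Its values were 4.42, 5.20, 5.23 and 5.10 RPKM in WT, 4.84, 4.50, 5.10, 5.13 and 4.32 in PU.1 KI and 6.68, 6.69, 7.20, 6.35 and 7.19 in miR-155 KO. All 5 miR-155 KO libraries stood above the other 9. Wee1 rose by 0.42 ± 0.06 (adjusted p = 1.45e-05) against WT and by 0.47 ± 0.06 (adjusted p = 1.76e-06) against PU.1 KI, while PU.1 KI and WT overlapped (-0.06 ± 0.06, adjusted p = 0.545, called lower after both scalings).

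Cdk1 (ENSMUSG00000019942, chr10:68799383-68815686, minus strand), the mitotic kinase itself, read 19.1, 20.4, 20.2 and 21.5 RPKM in WT, 21.7, 23.3, 21.7, 25.3 and 22.1 in PU.1 KI and 14.4, 14.5, 15.01, 14.8 and 18.7 in miR-155 KO. The 3 genotypes did not overlap, with miR-155 KO lowest and PU.1 KI highest. It changed by -0.39 ± 0.07 (adjusted p = 0.00013) against WT and by -0.55 ± 0.07 (adjusted p = 1.34e-06) against PU.1 KI, whereas the difference between PU.1 KI and WT was 0.16 ± 0.07 (adjusted p = 0.104) and passed only without miR-155 KO 5 (adjusted p = 0.0306). Ccnb1 (ENSMUSG00000041431, chr13:101548605-101556525, minus strand), cyclin B1, went from 14.8 ± 0.526 RPKM in WT (SD, n = 4) to 10.9 ± 0.889 in miR-155 KO (n = 5), a change of -0.43 ± 0.06 (adjusted p = 9.79e-06). Part of that signal is uncertain, since 23.4% of its 50-base stretches also occur in another gene, mostly the pseudogene Ccnb1-ps.

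Ccna2 (ENSMUSG00000027715, chr3:36463788-36471072, minus strand), cyclin A2, had the highest RPKM of the entry regulators. Its levels were 34.2, 34.4, 33.9 and 38.1 RPKM in WT, 35.1, 36.2, 35.5, 41.8 and 38.5 in PU.1 KI and 29.3, 29.4, 31.7, 30.8 and 34.8 in miR-155 KO. The miR-155 KO values overlapped WT at their upper end and lay below all PU.1 KI values. The changes were -0.17 ± 0.07 (adjusted p = 0.0295) and -0.26 ± 0.06 (adjusted p = 0.00131), and both were lost under quantile normalization. The call against WT was also lost without miR-155 KO 1, miR-155 KO 2, miR-155 KO 4 or WT 4 (adjusted p from 0.0513 to 0.109). Cdc25c (ENSMUSG00000044201), another phosphatase of Cdk1, read 5.16, 4.54, 5.65 and 5.45 RPKM in WT, 5.70, 5.48, 6.25, 7.12 and 6.08 in PU.1 KI and 4.30, 4.37, 4.78, 4.56 and 5.12 in miR-155 KO. PU.1 KI lay above all miR-155 KO libraries and overlapped WT at its low end. It rose in PU.1 KI, by 0.22 ± 0.07 (adjusted p = 0.0356), and the change of miR-155 KO against PU.1 KI was -0.37 ± 0.07 (adjusted p = 0.000163). Against WT the miR-155 KO change of -0.15 ± 0.07 (adjusted p = 0.0842) passed without miR-155 KO 5 or WT 2 (adjusted p from 0.0256 to 0.0387). Part of the signal of both genes is uncertain. Of the 50-base stretches of Ccna2, 11.4% also occur in Exosc9, and 11.9% of those of Cdc25c are shared, mostly with Gm3550.

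Foxm1 (ENSMUSG00000001517, chr6:128312985-128325911, plus strand) encodes the transcription factor that drives many of the other members. It read 11.5, 12.6, 12.9 and 12.3 RPKM in WT, 13.1, 11.9, 13.9, 15.1 and 13.6 in PU.1 KI and 11.1, 11.03, 11.5, 11.4 and 12.99 in miR-155 KO. All 3 genotypes overlapped. Foxm1 was lower in miR-155 KO than in PU.1 KI (-0.21 ± 0.06, adjusted p = 0.00648), a call lost under both scalings, and its difference from WT was -0.09 ± 0.07 (adjusted p = 0.271). Ccnb2, cyclin B2, and Ccnf, a cyclin of a ubiquitin ligase, fell against PU.1 KI, with changes of -0.25 and -0.21, and missed the threshold against WT. The Ccnb2 call was lost under quantile normalization (-0.054, adjusted p = 0.232). The Ccnf call was lost under both scalings and without miR-155 KO 2, miR-155 KO 4 or PU.1 KI 4 (adjusted p from 0.0503 to 0.0657), and Ccnb2 was also called against WT without miR-155 KO 5 (adjusted p = 0.0201).

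**Figure D3:**
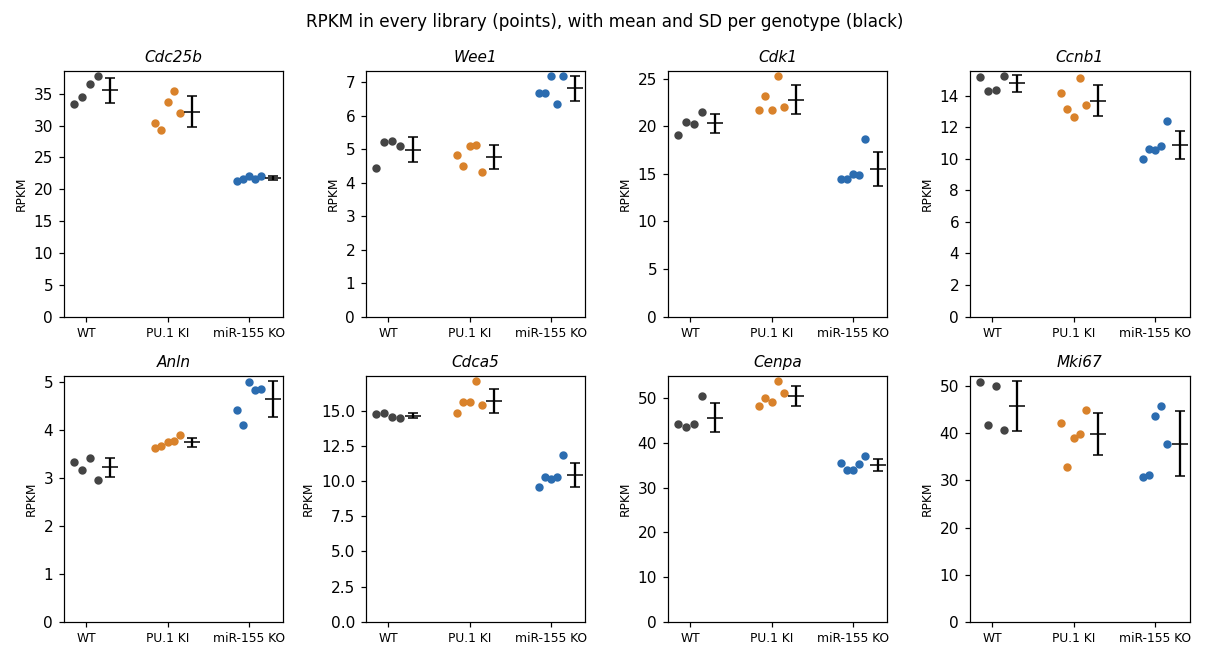
RPKM of 8 genes in each library (points), with the mean and SD per genotype (black), on linear axes that start at 0. Cdc25b, Cdk1, Ccnb1, Cdca5 and Cenpa are lower in all 5 miR-155 KO libraries than in every other library, Wee1 and Anln are higher in them, and Mki67 overlaps among all 3 genotypes.

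The mitotic kinases and the chromosomal passenger complex, which corrects faulty attachments and steers cytokinesis, were mostly lower in miR-155 KO. Of these 8 genes, 6 fell in miR-155 KO against WT and all 8 against PU.1 KI, where 35.3% and 46.4% of all tested genes fell. Median-of-ratios scaling gave 6 and 7, and quantile normalization 6 and 6. Aurkb (ENSMUSG00000020897, chr11:68859149-68865166, plus strand), the complex's kinase, read 27.1, 30.7, 30.2 and 31.4 RPKM in WT, 32.3, 32.4, 35.1, 39.8 and 33.3 in PU.1 KI and 24.2, 25.2, 25.2, 23.7 and 29.3 in miR-155 KO. Every PU.1 KI library exceeded every WT and miR-155 KO library, and the highest miR-155 KO library reached into the WT range. The changes were 0.21 ± 0.07 (adjusted p = 0.039) in PU.1 KI, -0.22 ± 0.07 (adjusted p = 0.0124) in miR-155 KO against WT and -0.43 ± 0.07 (adjusted p = 2.53e-05) against PU.1 KI. Cdca8 (ENSMUSG00000028873, chr4:124595709-124616555, minus strand), borealin of the same complex, read 20.8, 22.1, 22.7 and 25.2 RPKM in WT, 22.4, 22.4, 25.3, 28.2 and 24.1 in PU.1 KI and 16.1, 17.6, 17.8, 16.9 and 21.3 in miR-155 KO. Only miR-155 KO 5 overlapped WT, through WT 1, and none overlapped PU.1 KI. Cdca8 changed by -0.33 ± 0.08 (adjusted p = 0.00145) and -0.44 ± 0.08 (adjusted p = 6.48e-05), and Birc5, survivin, by -0.31 ± 0.08 (adjusted p = 0.0016) and -0.34 ± 0.07 (adjusted p = 0.000438).

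Incenp (ENSMUSG00000024660, chr19:9946787-9974023, minus strand), the scaffold of that complex and the gene of highest mean RPKM in this group, read 29.0, 33.0, 34.5 and 33.1 RPKM in WT, 32.2, 30.4, 36.9, 39.8 and 33.2 in PU.1 KI and 27.0, 29.4, 29.0, 26.0 and 34.1 in miR-155 KO. The 3 ranges overlapped. The miR-155 KO change was -0.24 ± 0.08 (adjusted p = 0.0124) against PU.1 KI, lost under both scalings, and -0.16 ± 0.08 (adjusted p = 0.11) against WT, which passed without miR-155 KO 5 or WT 1 (adjusted p from 0.0211 to 0.0442). Plk1 (ENSMUSG00000030867, chr7:129302951-129313389, plus strand), polo-like kinase 1, varied widely between libraries of a genotype. It read 19.99, 24.6, 27.7 and 24.1 RPKM in WT, 26.1, 26.2, 31.0, 32.9 and 23.7 in PU.1 KI and 20.3, 21.8, 18.5, 15.7 and 26.0 in miR-155 KO. It was lower in miR-155 KO than in PU.1 KI (-0.45 ± 0.11, adjusted p = 0.00193) with overlapping ranges. The difference from WT, -0.24 ± 0.12 (adjusted p = 0.0892), passed without miR-155 KO 5 or WT 1 (adjusted p from 0.0137 to 0.0269). Part of the Plk1 signal is uncertain, since 10.4% of its 50-base stretches are shared, mostly with Plk-ps1. Aurka, the spindle pole kinase, fell from 20.03 ± 0.860 RPKM in WT and 22.7 ± 1.54 in PU.1 KI to 16.7 ± 1.06, with changes of -0.26 ± 0.06 (adjusted p = 0.00108) and -0.43 ± 0.06 (adjusted p = 2.76e-06). Its activator Tpx2 changed by -0.29 and -0.29 and the centrosomal kinase Nek2 by -0.18 and -0.31, all past the threshold. Under quantile normalization Tpx2 lost its call against PU.1 KI (-0.11, adjusted p = 0.118).

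In the spindle checkpoint, Bub3 and Mad2l1 fell against WT and all 5 genes fell against PU.1 KI. Of all tested genes, 35.3% fell against WT and 46.4% against PU.1 KI. Of the 5, Bub3 and Mad2l1 kept the call against PU.1 KI after either scaling. Bub3 (ENSMUSG00000066979, chr7:138703905-138715412, plus strand), a WD-repeat protein that carries Bub1 and BubR1 to kinetochores, read 37.5, 42.0, 43.0 and 41.8 RPKM in WT, 39.4, 39.9, 40.7, 44.4 and 39.2 in PU.1 KI and 28.9, 30.8, 29.3, 27.3 and 35.1 in miR-155 KO. The miR-155 KO libraries lay below all others. The change was -0.44 ± 0.07 (adjusted p = 1.79e-05) against WT and -0.42 ± 0.06 (adjusted p = 1.4e-05) against PU.1 KI, with PU.1 KI and WT at 40.7 ± 2.16 and 41.1 ± 2.43 RPKM. Mad2l1, the Mad2 protein that sequesters Cdc20, changed by -0.37 ± 0.06 (adjusted p = 3.28e-05) and -0.33 ± 0.06 (adjusted p = 5.99e-05). For the other checkpoint genes, Bub1, Bub1b (BubR1) and Ttk (Mps1) changed by -0.15, -0.00057 and -0.10 against WT, none past the threshold. Against PU.1 KI their falls of -0.24, -0.15 and -0.17 did pass. Bub1b lost that call without miR-155 KO 1, miR-155 KO 2, miR-155 KO 3, miR-155 KO 4, PU.1 KI 4 or PU.1 KI 5 (adjusted p from 0.0603 to 0.107) and turned to 0.052 under quantile normalization, where its change against WT was 0.093 (adjusted p = 0.0485). Ttk lost it without miR-155 KO 1, miR-155 KO 2, miR-155 KO 5, PU.1 KI 3, PU.1 KI 4, PU.1 KI 5, WT 3 or WT 4 (adjusted p from 0.0515 to 0.136). In PU.1 KI against WT, Bub1b passed without WT 4 (adjusted p = 0.0481).

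Anaphase and mitotic exit genes gave 5 falls of 7 against WT and 6 of 7 against PU.1 KI, and 5 and 5 after either scaling. As deposited, 35.3% and 46.4% of all tested genes fell in these comparisons. Cdca5 (ENSMUSG00000024791, chr19:6084983-6091777, plus strand), sororin, protects cohesin until anaphase. It read 14.7, 14.8, 14.6 and 14.5 RPKM in WT, 14.8, 15.6, 15.6, 17.1 and 15.4 in PU.1 KI and 9.54, 10.3, 10.2, 10.3 and 11.9 in miR-155 KO. All miR-155 KO libraries were below all others, and the 4 WT libraries lay close together. Cdca5 changed by -0.47 ± 0.06 (adjusted p = 1.21e-06) against WT and -0.57 ± 0.06 (adjusted p = 6.25e-08) against PU.1 KI. Cdc20 (ENSMUSG00000006398, chr4:118105506-118109957, minus strand), the activator of the anaphase-promoting complex, read 29.1, 30.2, 29.4 and 32.0 RPKM in WT, 29.0, 30.4, 32.4, 35.4 and 32.7 in PU.1 KI and 22.9, 23.6, 22.3, 22.9 and 29.3 in miR-155 KO. Library 5 of miR-155 KO lay within the WT and PU.1 KI ranges and the other 4 lay below both. The changes were -0.32 ± 0.07 (adjusted p = 0.00108) and -0.40 ± 0.07 (adjusted p = 7.37e-05). Part of the Cdc20 signal is uncertain, since 10.6% of its 50-base stretches are shared, mostly with Gm7856.

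Espl1, separase, and its inhibitor Pttg1, securin, fell together: Espl1 from 11.5 ± 0.534 RPKM in WT to 8.60 ± 1.21 (-0.41 ± 0.08, adjusted p = 0.000161) and Pttg1 from 6.48 ± 0.245 to 5.28 ± 0.262 (-0.27 ± 0.06, adjusted p = 0.000516). Cdca3, also called Tome-1, changed by -0.28 ± 0.09 (adjusted p = 0.0102). Against PU.1 KI these 3 changed by -0.48, -0.36 and -0.36. Fzr1 and Ube2c missed the threshold against WT. Fzr1 (Cdh1), which activates the anaphase-promoting complex in late mitosis and G1, changed by -0.05, and Ube2c, the ubiquitin-conjugating enzyme of that complex, by -0.04. Fzr1 fell against PU.1 KI (-0.26 ± 0.08, adjusted p = 0.011) but not after either scaling, and Ube2c did not (-0.14 ± 0.06, adjusted p = 0.0511), though it passed without miR-155 KO 5, PU.1 KI 1, PU.1 KI 2 or WT 1 (adjusted p from 0.0106 to 0.0496). Of the 50-base stretches of Ube2c, 16% occur in another gene, mostly Tnnc2, so its value is uncertain.

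Of the 7 kinetochore genes, 5 fell against WT (Cenpa, Nuf2, Spc24, Spc25 and Cenpf) and 4 against PU.1 KI, or 4 and 3 after either scaling. For all tested genes the shares were 35.3% and 46.4%, or 32.7% and 29.9% after median-of-ratios scaling. Nuf2, Spc24 and Spc25 belong with Ndc80 to the Ndc80 complex, which binds spindle microtubules, and Ndc80 itself did not pass (0.09 ± 0.08, adjusted p = 0.353). Nuf2 (ENSMUSG00000026683, chr1:171428065-171461595, minus strand) read 11.8, 11.3, 11.9 and 11.8 RPKM in WT, 10.6, 9.46, 10.3, 10.9 and 11.7 in PU.1 KI and 7.59, 7.69, 9.03, 9.15 and 9.16 in miR-155 KO. The miR-155 KO values lay below all others. It changed by -0.44 ± 0.07 (adjusted p = 1.64e-05) against WT and by -0.30 ± 0.06 (adjusted p = 0.00047) against PU.1 KI. Spc24 changed by -0.36 ± 0.06 (adjusted p = 3.42e-05) and -0.43 ± 0.06 (adjusted p = 2.12e-06), and Spc25 by -0.26 ± 0.07 (adjusted p = 0.00286) and -0.18 ± 0.07 (adjusted p = 0.0249). The Spc25 call against PU.1 KI was lost without miR-155 KO 1, miR-155 KO 2, miR-155 KO 4 or PU.1 KI 4 (adjusted p from 0.0578 to 0.0847).

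Cenpa (ENSMUSG00000029177, chr5:30969259-30977200, plus strand), the histone H3 variant that marks centromeres, had the highest RPKM of the kinetochore genes. It read 44.2, 43.5, 44.3 and 50.5 RPKM in WT, 48.1, 50.1, 49.0, 53.9 and 51.2 in PU.1 KI and 35.5, 33.9, 33.9, 35.2 and 37.1 in miR-155 KO. No miR-155 KO library reached the WT or PU.1 KI range. The changes were -0.37 ± 0.06 (adjusted p = 1.33e-05) and -0.52 ± 0.05 (adjusted p = 1.23e-07), and the PU.1 KI difference from WT was 0.15 ± 0.06 (adjusted p = 0.0638), which passed without miR-155 KO 5, PU.1 KI 1 or WT 4 (adjusted p from 0.0136 to 0.0492). The large coiled-coil proteins Cenpe, a kinetochore kinesin, and Cenpf spread more within a genotype. Cenpe ranged from 6.03 to 9.16 RPKM in miR-155 KO and passed in no comparison. Cenpf changed by -0.25 ± 0.10 (adjusted p = 0.0437) against WT, a call lost without miR-155 KO 1, miR-155 KO 2, miR-155 KO 5, PU.1 KI 4, WT 1 or WT 3 (adjusted p from 0.0509 to 0.122). Against PU.1 KI, Cenpf passed without PU.1 KI 2 (adjusted p = 0.0468).

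Of the 5 spindle kinesins, 1 fell against WT and 3 against PU.1 KI, and after median-of-ratios scaling 1 remained, Kif22 against PU.1 KI. The 1 of 5 lies under the 35.3% of all tested genes that fell against WT. Against PU.1 KI, 46.4% of all tested genes fell. Kif4 (ENSMUSG00000034311, chrX:97821076-97922553, plus strand), a chromokinesin, read 8.98, 8.10, 8.39 and 7.94 RPKM in WT, 8.504, 6.96, 8.63, 8.82 and 9.43 in PU.1 KI and 6.14, 6.08, 7.63, 7.70 and 7.65 in miR-155 KO. WT and miR-155 KO did not overlap, and PU.1 KI 2 lay within the miR-155 KO range. It changed by -0.24 ± 0.08 (adjusted p = 0.0196) and -0.25 ± 0.08 (adjusted p = 0.00984), and the call against WT was lost without miR-155 KO 1, miR-155 KO 2 or WT 1 (adjusted p from 0.0574 to 0.0598). Its value is uncertain because 14.5% of its 50-base stretches are shared, mostly with Pdzd11. Kif22 (ENSMUSG00000030677, chr7:134171246-134185934, minus strand), the chromokinesin Kid, read 18.5, 20.4, 20.7 and 21.0 RPKM in WT, 21.1, 21.97, 23.4, 25.3 and 22.3 in PU.1 KI and 16.4, 17.8, 18.6, 16.9 and 21.7 in miR-155 KO. PU.1 KI stood above WT throughout; miR-155 KO 3 lay just above WT 1, and miR-155 KO 5 lay above all WT libraries and within the PU.1 KI range. The changes were -0.32 ± 0.07 (adjusted p = 0.000609) against PU.1 KI and -0.14 ± 0.07 (adjusted p = 0.101) against WT, the latter past the threshold without miR-155 KO 5 or WT 1 (adjusted p from 0.00855 to 0.04996). In PU.1 KI against WT it was 0.18 ± 0.07 (adjusted p = 0.0844), past it without miR-155 KO 5 (adjusted p = 0.0328).

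Kif11 (ENSMUSG00000012443, chr19:37450893-37496349, plus strand), the motor that makes the spindle bipolar, had the highest mean RPKM of the kinesins. It read 23.3, 20.7, 23.0 and 22.2 RPKM in WT, 22.2, 20.7, 21.3, 22.3 and 24.2 in PU.1 KI and 20.1, 19.9, 23.9, 23.2 and 22.4 in miR-155 KO. The 3 ranges overlapped. The changes were -0.01 ± 0.07 (adjusted p = 0.936), -0.03 ± 0.07 (adjusted p = 0.74) and -0.02 ± 0.06 (adjusted p = 0.815) in PU.1 KI against WT, miR-155 KO against WT and miR-155 KO against PU.1 KI. The last turned to 0.17 under quantile normalization (adjusted p = 0.0287). Kif18a, which dampens chromosome movements, passed nowhere (0.09 against WT). Kif2c (MCAK), a microtubule depolymerase, fell against PU.1 KI (-0.25 ± 0.07, adjusted p = 0.0045) and passed against WT without miR-155 KO 5 (adjusted p = 0.0247).

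Cytokinesis genes held both directions. Against WT, Anln rose and Kif20a fell among 7, where 35.3% of all tested genes fell and 27.2% rose. Against PU.1 KI, Anln rose and 4 fell, or 2 after either scaling. There 46.4% of all tested genes fell and 17.9% rose. Anln (ENSMUSG00000036777, chr9:22135658-22193650, minus strand), anillin, links actin, myosin and septins in the contractile ring. Its values, the lowest of the group, were 3.34, 3.17, 3.41 and 2.96 RPKM in WT, 3.63, 3.67, 3.75, 3.78 and 3.89 in PU.1 KI and 4.42, 4.10, 5.01, 4.84 and 4.86 in miR-155 KO. The 3 genotypes did not overlap and were ordered WT, PU.1 KI, miR-155 KO. Anln changed by 0.19 ± 0.06 (adjusted p = 0.0226), 0.47 ± 0.06 (adjusted p = 1.78e-06) and 0.28 ± 0.06 (adjusted p = 0.000343) in PU.1 KI against WT, miR-155 KO against WT and miR-155 KO against PU.1 KI; the first was lost under both scalings. Kif20a (ENSMUSG00000003779), the kinesin MKLP2 that carries the passenger complex to the midzone, read 15.3, 15.3, 15.6 and 17.3 RPKM in WT, 15.6, 15.98, 16.6, 18.2 and 17.3 in PU.1 KI and 11.5, 11.2, 12.7, 12.3 and 14.9 in miR-155 KO. Every miR-155 KO library was below every other one. It changed by -0.33 ± 0.07 (adjusted p = 0.000625) against WT and -0.41 ± 0.07 (adjusted p = 4.67e-05) against PU.1 KI, although 25.2% of its 50-base stretches also lie in Cdc23, which makes the value uncertain.

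Racgap1 (ENSMUSG00000023015, chr15:99450927-99482087, minus strand), the GTPase-activating part of centralspindlin, was highest in PU.1 KI. It read 17.6, 15.8, 16.9 and 18.1 RPKM in WT, 19.8, 18.4, 19.8, 22.8 and 20.9 in PU.1 KI and 15.04, 14.6, 15.8, 16.2 and 18.5 in miR-155 KO. PU.1 KI exceeded WT throughout, and miR-155 KO overlapped both. Racgap1 changed by 0.24 ± 0.07 (adjusted p = 0.0145) in PU.1 KI, a call kept under both scalings, and was lower in miR-155 KO than in PU.1 KI (-0.34 ± 0.07, adjusted p = 0.00024) but not than in WT (-0.09 ± 0.07, adjusted p = 0.261). Its partner kinesin Kif23 passed nowhere (0.01 against WT and -0.08 against PU.1 KI), and neither did Kif20b. Prc1, which bundles midzone microtubules, and Ect2, the activator of RhoA, fell against PU.1 KI, with changes of -0.19 and -0.17, both lost under scaling. Against WT, Prc1 passed without miR-155 KO 3, miR-155 KO 5 or PU.1 KI 4 (adjusted p from 0.0294 to 0.0491), Ect2 without miR-155 KO 5 (adjusted p = 0.0215) and Kif20b without miR-155 KO 3 or miR-155 KO 4 (adjusted p from 0.0495 to 0.0496).

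Among genes that shape mitotic chromosomes, 4 of 7 fell against WT and 4 of 7 against PU.1 KI. Of all tested genes, 35.3% and 46.4% fell in these comparisons. Median-of-ratios scaling left 2 in each comparison, where 32.7% and 29.9% of all genes were lower, and quantile normalization left 2 and 1. Condensin I, the ring that compacts chromosomes, showed unequal changes among its subunits. Ncapd2 (ENSMUSG00000038252, chr6:125118027-125141613, minus strand) read 49.4, 49.6, 50.2 and 54.9 RPKM in WT, 52.9, 51.1, 57.8, 61.7 and 56.8 in PU.1 KI and 39.5, 38.7, 41.0, 39.7 and 48.0 in miR-155 KO. All miR-155 KO libraries lay below the rest, with number 5 nearest to them. The changes were -0.30 ± 0.07 (adjusted p = 0.000873) and -0.44 ± 0.07 (adjusted p = 1.27e-05). Smc2 (ENSMUSG00000028312, chr4:52452115-52501237, plus strand), an ATPase arm of condensin, read 19.3, 16.5, 18.03 and 15.97 RPKM in WT, 15.8, 14.6, 14.2, 15.8 and 16.9 in PU.1 KI and 12.7, 11.6, 14.9, 14.8 and 14.2 in miR-155 KO. WT lay above all miR-155 KO libraries, and PU.1 KI overlapped each. It changed by -0.35 ± 0.08 (adjusted p = 0.000724) against WT and -0.18 ± 0.07 (adjusted p = 0.0384) against PU.1 KI, and the latter was lost under both scalings and without miR-155 KO 1, miR-155 KO 2, PU.1 KI 1, PU.1 KI 4 or PU.1 KI 5 (adjusted p from 0.0663 to 0.132). Its partner Smc4 passed in no comparison (-0.01 and -0.02). Ncapg changed by -0.22 ± 0.07 (adjusted p = 0.0127) and -0.20 ± 0.07 (adjusted p = 0.0161), the latter lost without miR-155 KO 2 (adjusted p = 0.0544), with 11.8% of its 50-base stretches shared with Lcorl. Ncaph fell against PU.1 KI (-0.24 ± 0.06, adjusted p = 0.00233), a call lost under quantile normalization (-0.057, adjusted p = 0.144), and passed in PU.1 KI against WT without PU.1 KI 1 or WT 4 (adjusted p from 0.0278 to 0.0385).

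Top2a (ENSMUSG00000020914, chr11:98854257-98885503, minus strand), topoisomerase II alpha, which untangles sister chromatids, had the highest mean RPKM of all 55 genes. It read 73.1, 64.5, 69.8 and 65.3 RPKM in WT, 64.9, 56.5, 59.8, 65.0 and 68.9 in PU.1 KI and 53.8, 55.8, 67.9, 65.4 and 62.8 in miR-155 KO. The 3 ranges overlapped and no comparison passed: the miR-155 KO change was -0.16 ± 0.07 (adjusted p = 0.07) against WT and passed without miR-155 KO 3 or miR-155 KO 4 (adjusted p from 0.0327 to 0.0496). Mki67, the Ki-67 protein that coats mitotic chromosomes and is used to mark dividing cells, was 45.8 ± 5.32 RPKM in WT, 39.8 ± 4.50 in PU.1 KI and 37.8 ± 6.93 in miR-155 KO. Its change against WT was -0.28 ± 0.11 (adjusted p = 0.0363), lost without miR-155 KO 1, miR-155 KO 2, WT 1 or WT 3 (adjusted p from 0.101 to 0.11), and against PU.1 KI it was -0.08 ± 0.11 (adjusted p = 0.5). In miR-155 KO its libraries ran from 30.7 to 45.8 RPKM.

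**Figure D4:**
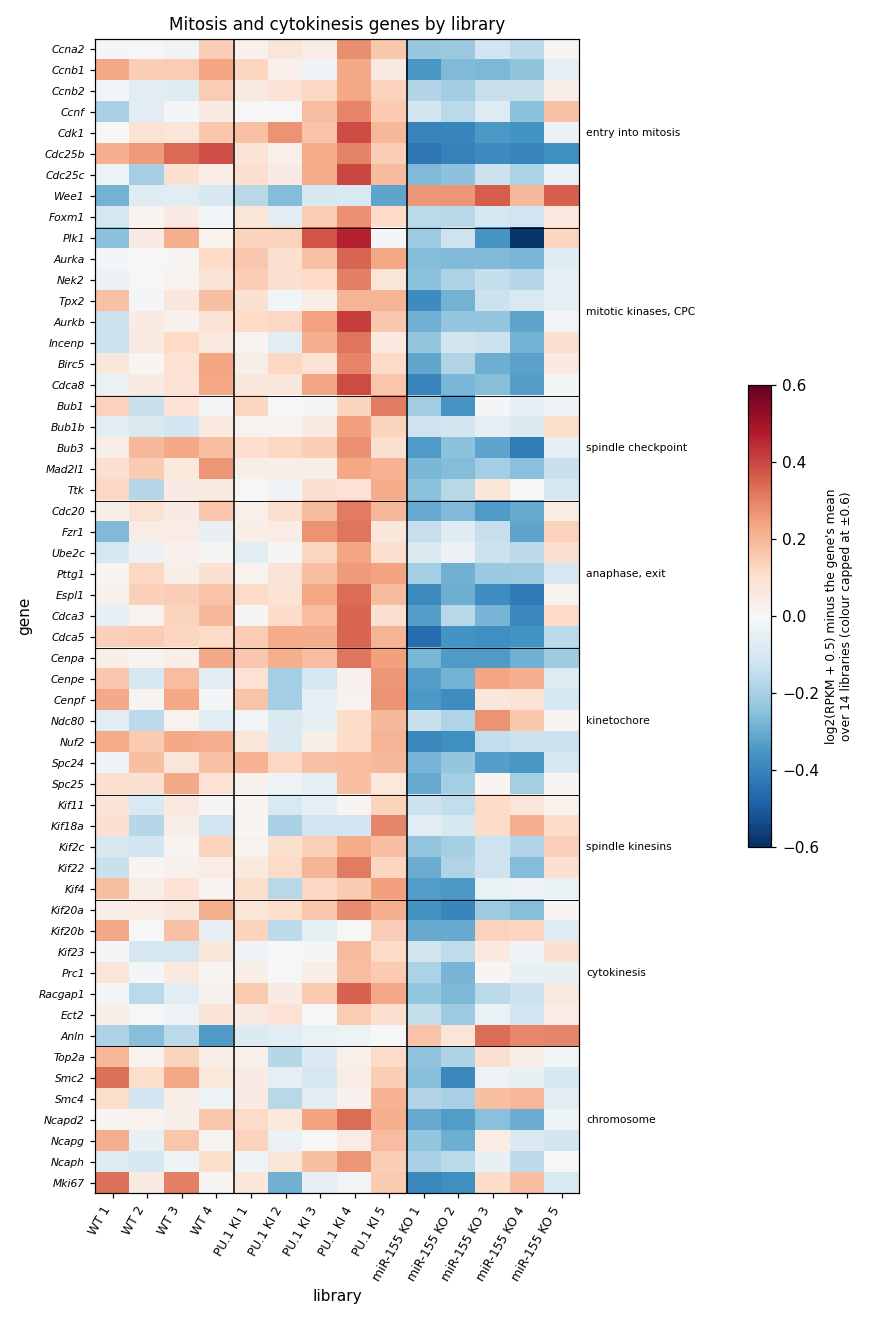
Log2(RPKM + 0.5) of each gene in each library minus that gene's mean over the 14 libraries (colour, capped at ±0.6), ordered by role and genotype. The miR-155 KO columns are mostly blue. Wee1 and Anln are red in all of them, and other genes are red in some, such as Plk1 and Fzr1 in miR-155 KO 5. PU.1 KI 4 is the reddest column.

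The libraries of a genotype were not uniform. As the median over the 55 genes of the deviation from each gene's mean (log2), the WT libraries lay between 0.01 and 0.07 and PU.1 KI between 0.03 and 0.23. The miR-155 KO libraries lay between -0.25 and -0.02, below all others. PU.1 KI 4 held the highest value of 32 genes, and miR-155 KO 1, 2 and 4 the lowest of 20, 18 and 12. The all-gene median moved with these values: it was 0.17 in PU.1 KI 4, -0.11 in miR-155 KO 1, -0.08 in miR-155 KO 2 and 0.02 in miR-155 KO 5. Subtracting it left the members at 0.07 in PU.1 KI 4, at -0.15 in miR-155 KO 1 and 2 and at -0.04 in miR-155 KO 5, and the 5 miR-155 KO libraries stayed the lowest. Without miR-155 KO 5 the fit called 35 members lower against WT and 42 against PU.1 KI, and without PU.1 KI 4 it called 37 against PU.1 KI.

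**Figure D5:**
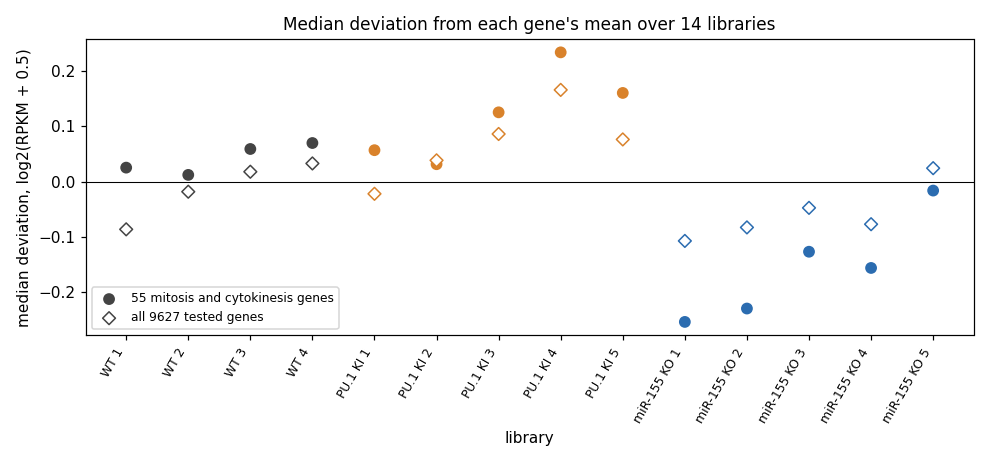
Median deviation of the 55 genes (filled circles) and of all 9627 tested genes (open diamonds) from each gene's mean over the 14 libraries, in log2(RPKM + 0.5). The circles fall below the diamonds in all 5 miR-155 KO libraries and lie above them in all WT libraries; PU.1 KI 4 is highest on both.

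Wee1 is also the member with the strongest match to miR-155, which represses mRNAs through pairing of its seed with sites in 3′ UTRs. The mature miRNA is shown with its seed (bases 2 to 8) in capitals, as RefSeq lists it on the plus strand of chr16:84714143-84714165 (GRCm38.p6). The sites shown next are those of Wee1 and Cdk1, because these antagonists moved in opposite directions, with the seed match in capitals. They come from the longest GENCODE 3′ UTR of each gene (GRCm38), at chr7:110142691-110142720 on the plus strand and chr10:69336213-69336242 on the minus strand.
mmu-miR-155-5p: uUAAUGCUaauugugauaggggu
Wee1 site: gctgtaaaactAGCATTAAacaatcattgt
Cdk1 site: taaagggttacAGCATTAggagggttgaca

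Wee1 held 1 match of 8 bases (AGCATTAA), Cdk1 held 1 of 7 bases (AGCATTA) and Mad2l1 held 2 of 7 bases, while 52 of the 55 genes held none (GCATTAA was also searched). Among all 9400 tested genes with a 3′ UTR, 3.34% held the 8-base match and 10.3% only a 7-base match. Of these, 53.5% and 40.4% rose in miR-155 KO against WT, compared with 24.7% of the 8116 genes with none. Wee1 rose, whereas Cdk1 and Mad2l1 fell. Anln, the other member that rose, held no match in a 3′ UTR of 1038 bases. In PU.1 KI cells, Wee1 differed from WT by -0.06 ± 0.06 (adjusted p = 0.545). A seed match is a description of the sequence, and these counts do not test repression of a given gene.

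The changes were also set out with and without a CHR core, a comparison that was not tested. The 10 members without a matched promoter are in neither class. Against WT, 17 of the 35 genes with a CHR core fell in miR-155 KO (median -0.22), as did 6 of the 10 without one (median -0.22). Against PU.1 KI the counts were 26 of 35 and 8 of 10, with medians of -0.24 and -0.30. Of all tested genes, 35.3% fell against WT and 46.4% against PU.1 KI. With 10 genes lacking a core, these counts cannot show whether the classes differ. Cdc25b, Cdk1 and Cenpa, whose promoters hold both motifs, fell in both comparisons. Kif11, Kif23 and Top2a hold both motifs as well and passed in no comparison.

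A list of 92 other mitosis genes, all tested, gave the same order of counts. In miR-155 KO against WT, 45 fell and 2 rose (median -0.16), where 35.3% of all tested genes fell. Against PU.1 KI, 55 fell and 1 rose (median -0.19), where 46.4% fell. In PU.1 KI against WT, 6 rose and 2 fell (median 0.03), where 23.7% of all tested genes rose and 4.03% fell. After median-of-ratios scaling, 41 fell and 8 rose against WT, where 32.7% of all tested genes were lower. Against PU.1 KI, 29 fell and 13 rose. In PU.1 KI against WT, 4 rose and 19 fell, where 17.7% of all tested genes were higher and 15.4% lower. The 29 of 92 lower than in PU.1 KI are then near the 29.9% of all tested genes. The largest falls against WT were in Cks2, a Cdk1-binding protein (-0.60 ± 0.06, adjusted p = 1.47e-07), Trip13, a checkpoint ATPase (-0.59 ± 0.08, adjusted p = 4.4e-06), and Kpna2, an importin (-0.57 ± 0.07, adjusted p = 3.57e-07). Sgol2, shugoshin 2 (0.24 ± 0.08, adjusted p = 0.0117), and Cdc27, a subunit of the anaphase-promoting complex (0.15 ± 0.06, adjusted p = 0.0228), rose. In PU.1 KI, the largest rise was in Mybl2, the B-Myb partner of MuvB (0.30 ± 0.08, adjusted p = 0.01). Next came Troap, a spindle protein (0.26 ± 0.08, adjusted p = 0.0157), and Lin37, a MuvB subunit (0.24 ± 0.06, adjusted p = 0.00662). The 2 that fell were Shcbp1 (-0.25 ± 0.07, adjusted p = 0.00926) and Stag1 (-0.19 ± 0.06, adjusted p = 0.0238). Mybl2 was lower in miR-155 KO than in PU.1 KI (-0.51 ± 0.08, adjusted p = 1.24e-05). So were Troap (-0.52 ± 0.07, adjusted p = 5.89e-06) and Cks2 (-0.51 ± 0.06, adjusted p = 5.83e-07), while Ckap5 was higher (0.24 ± 0.08, adjusted p = 0.0122).

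By subgroup, against WT, where 35.3% of all tested genes fell, 8 of 14 subunits and regulators of the anaphase-promoting complex fell, 13 of 26 other kinetochore genes, 6 of 13 cohesin and condensin II genes, 10 of 23 other spindle and cytokinesis genes and 8 of 16 other G2 and M regulators. After median-of-ratios scaling, where 32.7% of all genes were lower, the counts were 7, 11, 6, 10 and 7, and no subgroup was tested as a list. The genes of DNA replication, which act before mitosis in the same cycle, had larger changes. Of 47 tested, 40 fell and 4 rose in miR-155 KO against WT, with a median of -0.50, against -0.18 for the mitosis and cytokinesis genes and -0.05 for all genes. Against PU.1 KI 38 fell and 3 rose (median -0.41), where 46.4% of all tested genes fell and 17.9% rose. In PU.1 KI against WT 7 fell and 2 rose (median -0.06), where 4.03% of all tested genes fell and 23.7% rose. After median-of-ratios scaling these counts were 24 and 2, where 15.4% of all tested genes were lower and 17.7% higher. Mcm3, a subunit of the replicative helicase, changed by -0.85 ± 0.07 (adjusted p = 9.89e-09) against WT, more than any mitotic member, and Pcna, the sliding clamp, by -0.76 ± 0.07 (adjusted p = 1.57e-08). The licensing factor Cdt1 rose by 0.69 ± 0.13 (adjusted p = 0.000189). No test compared the lists with each other.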

How the data were processed

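Poly(A) RNA of 14 libraries was sequenced after TruSeq preparation, per the labels' protocols. Trim Galore, TopHat and build NCBIM37 are named in the submitters' processing notes, without versions; for the counter, annotation and strand setting, the sources used here name nothing. The authors deposited 1 table of RPKM values with 22295 rows. RPKM values are not counts, so no count test was run; depth was estimated from the steps between 250 low values of short genes per library, of which 66.4% to 72.8% then lay within 0.01 reads of a whole number. A gene was tested if it reached 1 RPKM in at least 4 libraries (9627 genes). log2(RPKM + 0.5) was fitted with limma 3.58.1 in R 4.3.3 with 1 mean per genotype over all 14 libraries, a mean-variance trend and two-sided p-values, adjusted by Benjamini-Hochberg over the tested genes. Adding 0.5 understates fold changes of low genes. The fit was tested on simulated data with independent noise in each gene, which held no shift common to a whole library.

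Members and gene lists were chosen with earlier results of these data known. By a fixed rule, every library's value was given in each role for the member with the largest change past the threshold in each comparison and the one with the highest mean RPKM, and for Foxm1 and Wee1; Cdk1 was added after its values were seen. Genes of the other lists were named from the 3 largest changes past the threshold in each direction. Promoters and the miRNA were RefSeq's (GRCm38.p6) and 3′ UTRs GENCODE's (GRCm38), so their coordinates differ from the NCBIM37 ones beside each gene. Shared 50-base stretches were counted over the GRCm38 transcripts. Sequences were searched in Python 3.11.15 (pandas 2.3.3, numpy 2.4.6), and plots drawn with matplotlib 3.10.9. No pair of libraries held identical values, and the p-values measure the spread between these libraries.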

Additional observations from a re-analysis of the deposited data

Results flagged for a closer look

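Within a genotype, 1 library stood far from the others (Dixon's 95% criterion) in 19 of 165 combinations of gene and genotype; chance gives about 1 in 20. Of these, 10 were miR-155 KO 5, 5 were WT 4 and 4 were other libraries.

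By this criterion, library 5 of miR-155 KO stood far above the rest of its genotype for 10 genes. They were Ccnb2 at 31.5 RPKM, Cdk1 at 18.7, Foxm1 at 12.99, Aurka at 18.6, Aurkb at 29.3, Bub1b at 30.8, Cdc20 at 29.3, Espl1 at 10.7, Kif2c at 10.6 and Ncapd2 at 48.0. That library was also the highest of its genotype for many members that were not flagged, such as Plk1 at 26.0 and Bub3 at 35.1. In the same library the median deviation of all tested genes was 0.02, while it was -0.11 to -0.05 in the other 4. Without it, 35 members were lower than in WT, against 28 with it.

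Library 4 of WT was the highest WT value of Ccna2 at 38.1 RPKM, Aurka at 21.3, Cenpa at 50.5, Kif20a at 17.3 and Ncapd2 at 54.9. Single values were also far off for Wee1 in WT 1 (lowest, 4.42 RPKM), Nuf2 in WT 2 (lowest, 11.3), Spc25 in WT 3 (highest, 10.1) and Bub3 in PU.1 KI 4 (highest, 44.4). Wee1 in WT 1 remained below all miR-155 KO libraries, as did the other 3 WT libraries.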

How the results depend on the processing

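Every called change of miR-155 KO kept its sign, where the gene was still tested, under pseudocounts of 0.1 and 1, both filters and all single-library omissions. Without a filter, Cenpf and Mki67 against WT, Smc2 and Ttk against PU.1 KI, and Aurkb and Cdc25c in PU.1 KI lost their calls. With median-of-ratios scaling, 8 members were lower in PU.1 KI than in WT and 2 higher; with quantile normalization, 7 and 2, and 25 were lower in miR-155 KO than in PU.1 KI. No filter left 3 higher in PU.1 KI. The filter of 5 RPKM kept 52 members and removed Anln, Ttk and Kif18a. Without Anln, 1 member was higher in miR-155 KO than in WT and 1 than in PU.1 KI. Leaving out 1 library gave 0 to 9 members higher and 0 to 1 lower in PU.1 KI, 24 to 35 lower in miR-155 KO than in WT and 36 to 44 than in PU.1 KI. Leaving out miR-155 KO 5 with WT 1, a choice made after seeing the data like the next, gave 2 higher and 1 lower in PU.1 KI, and with WT 4, 13 higher.

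Over all genes, those higher in miR-155 KO than in PU.1 KI numbered 2822 without a filter, 869 with the filter of 5 RPKM, 3145 with median-of-ratios and 2831 with quantile normalization, against 1725. Those lower numbered 2881 with median-of-ratios, against 4467. Those higher than in WT numbered 1468 with the filter of 5 RPKM, against 2616. Those lower in PU.1 KI numbered 242 with that filter, 1484 with median-of-ratios and 1549 with quantile normalization, against 388.

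Under quantile normalization, Kif11 in miR-155 KO against PU.1 KI turned to 0.17 (adjusted p = 0.0287) and Bub1b to 0.052 (adjusted p = 0.238), and Bub1b against WT to 0.093 (adjusted p = 0.0485). Over the 55 genes and 3 comparisons, 3274 values under an alternative left the call as it was, 115 lost it and 64 gained it. The remaining 3, named above, changed sign, and none of them was called in both directions. The cause was not tested.

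Genotypes share replicate numbers, and the values did not settle whether these numbers pair the libraries. Of 13 same-numbered pairs, 7 had correlated deviations over 0.1 (median 0.11). Of 52 pairs with different numbers, 18 did (median -0.01). Only 4 of 14 libraries correlated best with their own number. A fit with the replicate block gave 5 higher and 2 lower in PU.1 KI, 2 and 37 in miR-155 KO against WT, and 2 and 43 against PU.1 KI. RPKM totals per library ran from 192433 to 236181, and a change common to all genes cannot be told apart from such totals.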
